A study of Mus musculus with 8 samples.

Results

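Prostaglandin E2 is made by a short chain of enzymes and cleared by others, and TP-16 blocks EP4, one of its receptors. The genes followed here, for 10 enzymes and carriers of prostaglandin synthesis, uptake and breakdown, were taken as the mouse probes of the array whose gene name is Pla2g4a, Ptgs1, Ptgs2, Ptges, Ptges2, Ptges3, Ptgds, Ptgis, Hpgd or Slco2a1. These 10 genes are among 37309 names on the array and are carried by 19 probes. All 10 genes had a probe well above background on all 8 arrays, and 18 of the 19 probes were tested. Membership goes by gene name, and the genes were chosen with earlier results of these data known.

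The samples are subcutaneous tumors of CT26, a carcinoma line from the colon of a BALB/c mouse, grown from 500000 implanted cells in female BALB/c mice of 6 to 10 weeks of age. Mice received treatment for 2 weeks in 4 groups of 2 arrays each. The vehicle group received neither agent. The TP-16 group received 75 mg/kg TP-16 (named BY001 in the labels) by mouth daily. The anti-PD-1 group received 50 µg per mouse of an antibody to PD-1, a T-cell receptor that restrains activation, into the peritoneum in 2 doses a week, and the combination group received both agents. All groups carried the same tumor line, no genetic change is named for the hosts, and the labels do not say if tumors were pooled, so p-values measure only the spread between these samples.

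As background, phospholipase A2 frees arachidonic acid from membranes, and the cyclooxygenases Ptgs1 and Ptgs2 turn it into prostaglandin H2. Terminal synthases then make the different prostaglandins, with Ptges, Ptges2 and Ptges3 for E2, Ptgds for D2 and Ptgis for prostacyclin. The carrier Slco2a1 brings prostaglandins into cells, and the dehydrogenase Hpgd begins their breakdown there. Colon tumors are known for high Ptgs2 and low Hpgd.

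Values are log2 intensities relative to the 75th percentile of the array, so that 0 is the brightness of the probe at that percentile and levels of different probes cannot be compared. The 75th percentile itself ranged from 371.1 to 414.9 on the arrays without TP-16 and from 530.2 to 733.6 on those with it. It was highest on the combination arrays. All arrays lay on 1 slide, where slide row cannot be told apart from the antibody and slide column cannot be told apart from TP-16. Replicate arrays differed with an SD over tested probes of 0.68 in vehicle and 0.42 to 0.53 elsewhere. Of 8 epithelial carcinoma markers 6 were tested, while Epcam was well above background on 1 array and Vil1 on none. The epidermis markers that were tested, 4 of 8, summed to 31.8 and 33.6 times the 75th percentile on TP-16 replicate 2 and anti-PD-1 replicate 2 and to 7.91 to 9.43 on the other 6 arrays. Their mean log2 level was 2.81 and 2.79 on those 2 arrays, 0.53 on vehicle replicate 2 and -1.29 to -0.73 on the rest.

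Among the 10 genes, the breakdown and uptake genes Hpgd and Slco2a1 were higher in the combination than in vehicle, by 4.445-fold and 2.14-fold on their brightest probes. Another Slco2a1 probe, A_55_P2941602, was called lower there, the mean of the Slco2a1 probes differed by -0.08, and the Slco2a1 call was lost with normexp, another background correction. Hpgd stayed called with normexp, at a log2 difference of 1.09 in place of 2.15. Under TP-16 alone Ptgds was called higher and Ptgis lower, neither with an adjusted p at or under 0.05. Both of these calls were lost without vehicle replicate 1, without TP-16 replicate 2 and with the methods' t-test. The cyclooxygenases, the E2 synthases and Pla2g4a stayed within a fold of 2 of vehicle in all 3 treatments on their brightest probes. In bulk tumor RNA fewer cells of a type and less RNA per cell cannot be told apart. A gene was called when its fold was at least 2 and its unadjusted limma p at most 0.05, the threshold of the study's methods. By that rule 2 of 10 genes were called for TP-16 against vehicle, beside 6.67% of the 21616 genes tested. For anti-PD-1 against vehicle limma called 0 of 10, beside 4.14% of all genes, and the methods' t-test also called 0. With no limit on the fold, 2 of 10 had a p that low for anti-PD-1, where 15.0% of all genes did. For the combination against vehicle 2 of 10 were called, beside 17.0% of all genes, so the share of these genes was near that of the array. The same 2 of 10 kept an adjusted p (Benjamini-Hochberg) at or under 0.05, beside 14.2% of all genes. At any fold, 5 of 10 passed for TP-16, where 27.9% of all genes did, and 7 of 10 for the combination, where 49.9% did. The comparisons with vehicle share the vehicle arrays.

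The median over all genes was itself below 0 on this scale, at -0.15 in TP-16, -0.10 in anti-PD-1 and -0.24 in the combination. The median over the 10 genes was -0.15, -0.07 and -0.37 in the same comparisons. After quantile normalization the median over all genes was shifted up by 0.149, 0.0822 and 0.19 in that order. Of all genes called, those higher than in vehicle made up 23.2%, 45.6% and 38.9% with the 75th percentile and 63.0%, 73.8% and 64.8% after quantile normalization, again in the order TP-16, anti-PD-1, combination. Small differences of bright probes are therefore also given relative to the median of all genes.

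**Figure D1:**
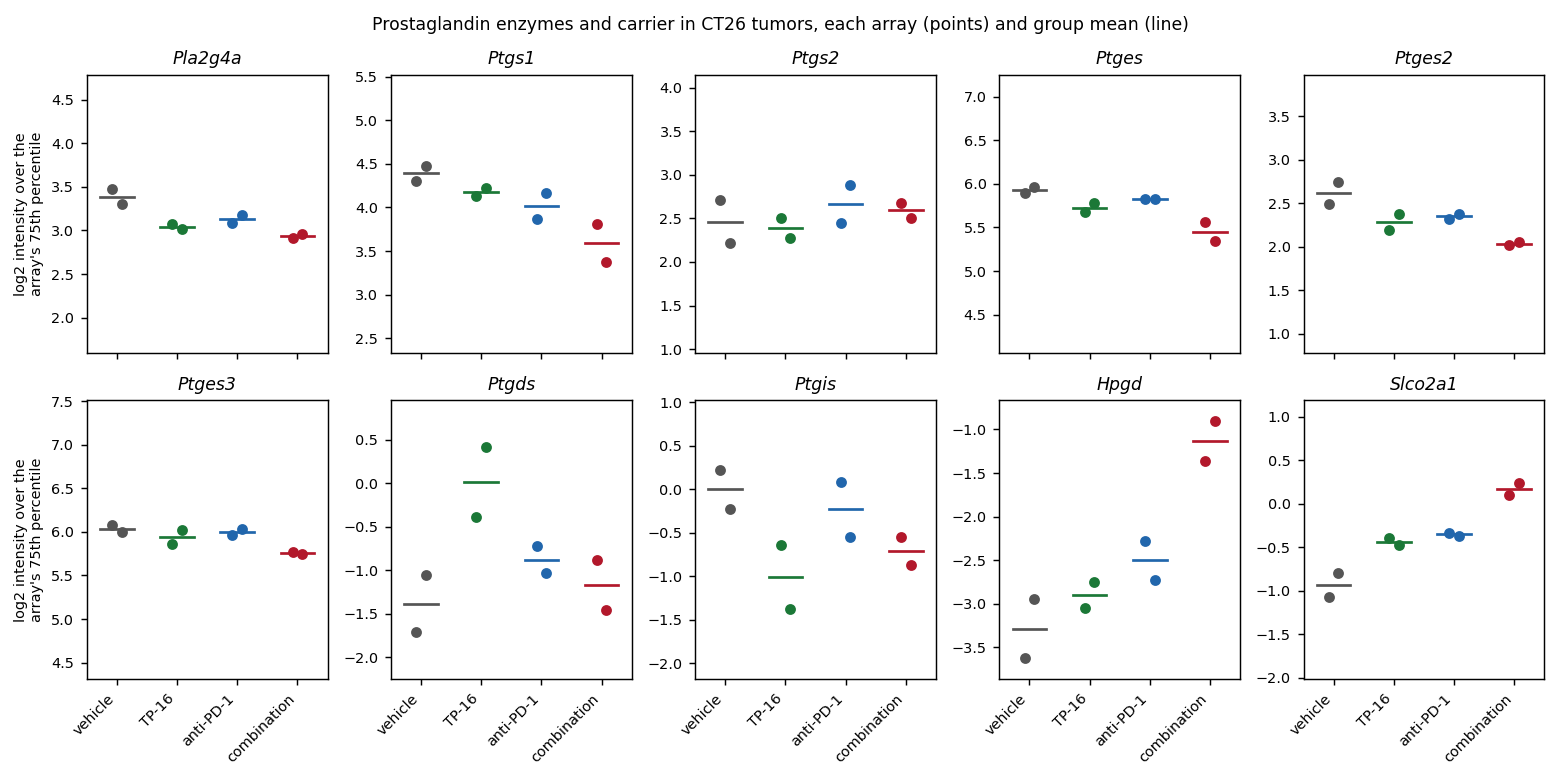
Log2 intensity over the 75th percentile of the array (y axis, each panel spanning the same number of log2 units) of the 10 genes on the 2 arrays of each group (points), with the group mean (line). Hpgd and Slco2a1 lie highest on both combination arrays, Ptgds lies highest on both TP-16 arrays, and Ptgs2 overlaps between vehicle and every treatment.

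Pla2g4a, the cytosolic phospholipase A2 that releases arachidonic acid, measured 3.47 and 3.30 in vehicle, 3.07 and 3.02 with TP-16, 3.09 and 3.18 with anti-PD-1, and 2.91 and 2.96 in the combination. All 6 treated arrays lay below both vehicle arrays. The log2 difference of the combination from vehicle was -0.45 (SE 0.11, adjusted p = 0.0302), a fold of 0.731 that missed the threshold, and it was -0.22 relative to the median of all genes. TP-16 alone differed by -0.34 (SE 0.11, adjusted p = 0.140) and anti-PD-1 alone by -0.25 (SE 0.11, adjusted p = 0.371). A second, dim probe for another Pla2g4a transcript, A_55_P2719699, was well above background on 1 vehicle array and on both TP-16 arrays, 3 of 8 in all. For folds on it, the dim group was set at the lowest signal that was well above background on each array. Vehicle was then 2.65-fold brighter than the combination and 1.67-fold brighter than anti-PD-1. Neither of these groups was well above background (limma adjusted p = 0.0440 and 0.330 for the measured differences). With only 1 vehicle array well above background, these folds are not lower bounds. Both folds rest on vehicle replicate 2, at -2.55, beside -4.18 on vehicle replicate 1. Without replicate 2 the measured differences were -1.07 and -0.57. Averaged over both TP-16 states the probe was called lower with antibody (-1.24, adjusted p = 0.109), with no antibody array well above background, and the call was lost with normexp and without vehicle replicate 2, TP-16 replicate 1, anti-PD-1 replicate 1 or combination replicate 1. With the mean of both probes Pla2g4a differed by -1.17 in the combination and was called, where the brightest probe alone differed by -0.45. The sizes of this difference and of the antibody average are uncertain, since both rest on the dim probe.

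Ptgs1, the constitutive cyclooxygenase, measured 4.31 and 4.48 in vehicle, 4.13 and 4.23 with TP-16, 3.87 and 4.16 with anti-PD-1, and 3.81 and 3.37 in the combination. The combination arrays were the lowest 2 of the 8. Their difference from vehicle was -0.80 (SE 0.19, 95% interval -1.27 to -0.34, adjusted p = 0.0264), short of a fold of 2, and -0.57 relative to the median of all genes under the 75th percentile as after quantile normalization. Without combination replicate 1 the difference was -1.02 and the gene was called (adjusted p = 0.0326). Its second probe, A_55_P2720465, was well above background on 5 arrays, none of them vehicle, so that no fold is given.

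Ptgs2, the inducible cyclooxygenase, measured 2.71 and 2.21 in vehicle, 2.50 and 2.28 with TP-16, 2.45 and 2.89 with anti-PD-1, and 2.68 and 2.51 in the combination. Vehicle overlapped every treatment, and its 2 arrays spanned most of the range. TP-16 differed from vehicle by -0.07 (95% interval -0.64 to 0.49), anti-PD-1 by 0.21 (-0.36 to 0.77) and the combination by 0.13 (-0.43 to 0.70). These intervals leave out a fold of 2 in either direction.

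The stretch of sequence around the RefSeq start of Ptgs2 is shown because the gene is a textbook target of cyclic AMP, the signal that EP4 raises. It runs from 250 bases before to 30 after the start, on the plus strand at chr1:150099781-150100060 of GRCm38.p6.
Ptgs2: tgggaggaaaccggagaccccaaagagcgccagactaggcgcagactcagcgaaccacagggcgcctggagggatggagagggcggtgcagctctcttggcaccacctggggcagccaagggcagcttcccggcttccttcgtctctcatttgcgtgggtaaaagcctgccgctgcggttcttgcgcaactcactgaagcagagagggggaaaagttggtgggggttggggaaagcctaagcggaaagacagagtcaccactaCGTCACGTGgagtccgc
In capitals, CGTCACGTG holds CGTCA, the core of a cyclic AMP response element, overlapping an E-box CACGTG, both after the annotated start.

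Ptges, the inducible E2 synthase, was read by 3 probes. The brightest, A_55_P1974193, measured 5.90 and 5.97 in vehicle, 5.67 and 5.78 with TP-16, 5.83 and 5.83 with anti-PD-1, and 5.56 and 5.34 in the combination. Both combination arrays lay below the 6 others. The differences of the combination from vehicle were -0.48 (SE 0.12, adjusted p = 0.0298), -0.76 (SE 0.22, adjusted p = 0.0489) and -0.51 (SE 0.20, adjusted p = 0.105) on the 3 probes, none of which reached a fold of 2. The third probe, A_55_P1974189, differed from vehicle by 0.03 with TP-16 and 0.10 with anti-PD-1, where the brightest had -0.21 and -0.11, all within intervals that include 0. A_55_P1974193 shares a stretch of 16 bases with 4 probes of other genes and A_55_P1974189 with 1. Relative to the median of all genes the brightest probe differed by -0.24, and by -0.08 after quantile normalization. Against anti-PD-1 alone the combination differed by -0.38 (SE 0.12, adjusted p = 0.128).

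Ptges2, a membrane-associated protein with E2 synthase activity in vitro, measured 2.49 and 2.74 in vehicle, 2.19 and 2.38 with TP-16, 2.33 and 2.38 with anti-PD-1, and 2.02 and 2.06 in the combination. The combination arrays were again the lowest, with a difference of -0.58 (SE 0.13, adjusted p = 0.0246), or -0.34 relative to the median of all genes. Ptges3, the cytosolic E2 synthase that is also the p23 co-chaperone of Hsp90, was between 5.74 and 6.08 on all 8 arrays. Its combination difference of -0.28 (SE 0.11, adjusted p = 0.0978) was -0.04 relative to the median of all genes and turned to 0.10 after quantile normalization.

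Ptgds, the lipocalin-type synthase of prostaglandin D2, measured -1.71 and -1.05 in vehicle, -0.38 and 0.41 with TP-16, -0.72 and -1.03 with anti-PD-1, and -0.88 and -1.46 in the combination. Both TP-16 arrays lay above the 6 others. Both anti-PD-1 arrays also lay above both vehicle arrays, by little where nearest (-1.03 against -1.05), and the combination overlapped vehicle and anti-PD-1. The probe was printed in 10 spots on every array. TP-16 differed from vehicle by 1.40 (SE 0.37, 95% interval 0.49 to 2.30, 2.63-fold), which was called at the unadjusted threshold and not after adjustment (adjusted p = 0.106). The combination differed from TP-16 alone by -1.18 (SE 0.37, adjusted p = 0.161), which was not called without TP-16 replicate 2 (-0.78), without combination replicate 2 (-0.90) or by the methods' t-test, and it differed from vehicle by 0.21 (95% interval -0.69 to 1.12). The departure from additivity, the combination minus both single agents plus vehicle, was -1.69 (SE 0.52, adjusted p = 0.580). Ptgds was the 1 of 10 genes called there, beside 3.28% of all genes.

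The TP-16 difference of Ptgds was 1.07 without vehicle replicate 1 (adjusted p = 0.187) and 0.998 without TP-16 replicate 2 (adjusted p = 0.261), and neither was called. TP-16 replicate 2, the array with the highest Ptgds, also held a high level of epidermis markers. Those markers were at 31.8 on that array, where Ptgds was at 0.41, at 7.91 on TP-16 replicate 1 with Ptgds at -0.38, and at 33.6 on anti-PD-1 replicate 2 with Ptgds at -1.03. Vehicle replicate 2 had the next highest mean log2 level of these markers (0.53), with Ptgds at -1.05. The part of the epidermis markers in the Ptgds difference was not tested.

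**Figure D2:**
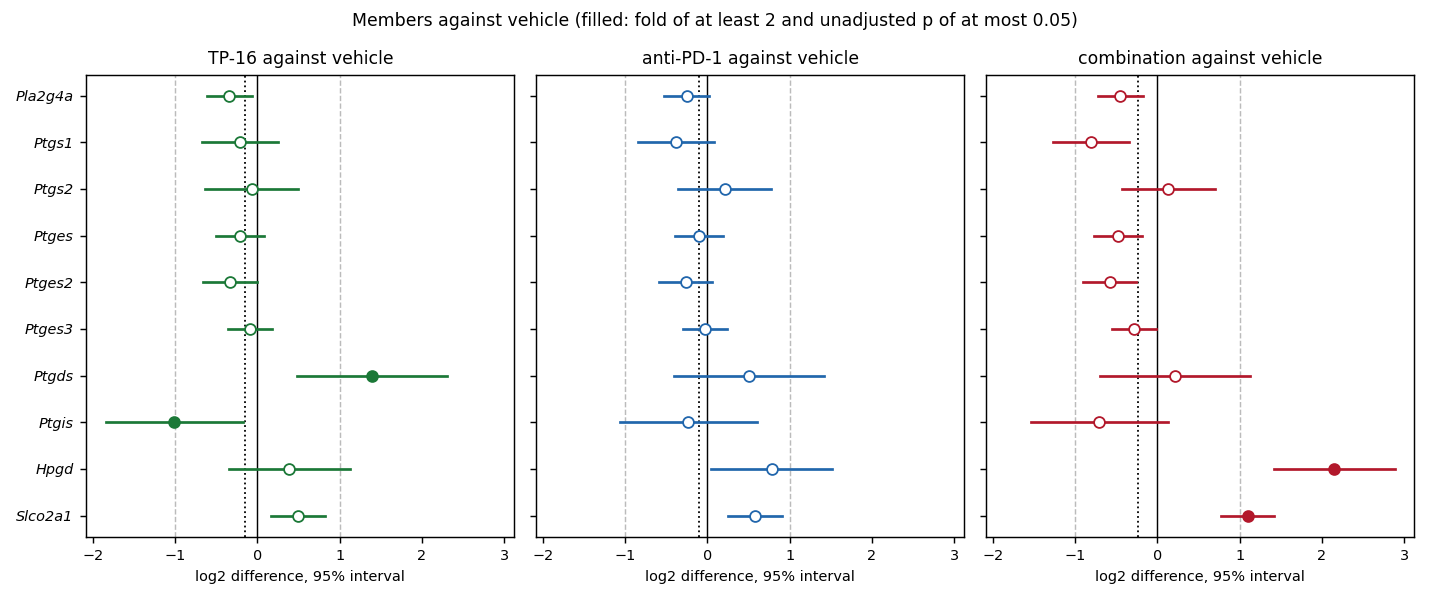
Log2 difference from vehicle with its 95% interval (x axis) for each of the 10 genes, with a panel per treatment. Filled points were called, dashed lines mark a fold of 2, and the dotted line marks the median over all genes tested. Ptgds and Ptgis are called for TP-16, none for anti-PD-1, and Hpgd and Slco2a1 for the combination.

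Ptgis, the prostacyclin synthase of endothelium and smooth muscle, measured 0.22 and -0.22 in vehicle, -0.64 and -1.38 with TP-16, 0.09 and -0.55 with anti-PD-1, and -0.55 and -0.87 in the combination. Both TP-16 arrays lay below both vehicle arrays, and the combination arrays overlapped TP-16 and also lay below both vehicle arrays. TP-16 differed from vehicle by -1.01 (SE 0.34, adjusted p = 0.145), a fold of 0.497 that only just passed the threshold and did not after quantile normalization (-0.97). A second probe within the gene, A_51_P372819, gave -1.02 for TP-16 (SE 0.31, adjusted p = 0.126) and the third, A_55_P2074757, gave -0.43 (SE 0.32, adjusted p = 0.422). The combination differed from vehicle by -0.71, -0.74 and -0.88 on the 3 probes (adjusted p = 0.157, 0.117 and 0.0805). Without TP-16 replicate 2 the TP-16 difference of the first probe was -0.64, and without vehicle replicate 1 it was -0.79, neither of them called. The second probe was not called in these fits either (-0.96 and -0.92). On the third probe the combination differed from anti-PD-1 alone by -1.17 (SE 0.32, adjusted p = 0.102), a difference that was called there and on neither of the others. It was not called without anti-PD-1 replicate 2 (-0.81), without combination replicate 2 (-1.02) or in 4 of 10 other settings, and it was -1.53 without anti-PD-1 replicate 1. Anti-PD-1 alone differed from vehicle by 0.29 on it and by -0.23 on the first, both within intervals that include 0.

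The 10 endothelial markers summed to 32.8 to 33.2 times the 75th percentile in vehicle, 15.8 to 24.7 with TP-16, 24.1 to 28.8 with anti-PD-1 and 26.9 to 36.9 in the combination. For TP-16 9 of the 10 were below vehicle, 4 had an unadjusted limma p at or under 0.05 and 0 reached a fold of 2 with it. Among all genes 27.9% had such a p for TP-16 and 6.67% were called. The 7 adipocyte markers summed to 32.9 to 35.6 in vehicle and 17.2 to 24.0 with TP-16, and 0 were called, with 2 at that p. That sum was nearly all Fabp4, a fatty acid binding protein, at 4.98 and 4.99 in vehicle and 4.39 and 3.81 with TP-16 on the log2 scale (difference -0.88, adjusted p = 0.0977), while 4 of the 7 were above vehicle and their median difference was 0.09. The 10 skeletal muscle markers summed to 21.7 to 56.1 in vehicle and 51.5 to 53.4 with TP-16, with 1 called. The part of endothelial, fat and muscle RNA in the Ptgis difference was not tested.

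Hpgd, the 15-hydroxyprostaglandin dehydrogenase that inactivates prostaglandin E2, measured -3.63 and -2.95 in vehicle, -3.05 and -2.75 with TP-16, -2.28 and -2.72 with anti-PD-1, and -1.36 and -0.91 in the combination. Both combination arrays lay above the 6 others by more than the spread within any group. The scanner intensities behind these values were 30.1 and 49 in vehicle, 64.2 and 81.6 with TP-16, 81.8 and 62.8 with anti-PD-1, and 236 and 391 in the combination, so the vehicle values were dim although well above background. The group means ran from vehicle through TP-16 and anti-PD-1 to the combination. Vehicle and TP-16 did not differ beyond their spread (0.39, 95% interval -0.35 to 1.12), and TP-16 and anti-PD-1 were not tested against each other.

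The combination exceeded vehicle by 2.15 (SE 0.30, 95% interval 1.42 to 2.89, adjusted p = 0.0104), above 98.4% of all genes. It exceeded TP-16 alone by 1.77 (SE 0.30, 3.40-fold, adjusted p = 0.110) and anti-PD-1 alone by 1.37 (SE 0.30, 2.58-fold, adjusted p = 0.0762). Hpgd and Ptgds were the 2 of 10 genes called for the combination against TP-16, in opposite directions and beside 4.87% of all genes. Hpgd was the 1 of 10 called against anti-PD-1, beside 4.70%, and with normexp that difference was 0.80 and not called. Anti-PD-1 alone differed from vehicle by 0.78 (SE 0.30, 1.72-fold, adjusted p = 0.329). It reached a fold of 2 after quantile normalization (1.10), without vehicle replicate 2 and without anti-PD-1 replicate 2. At its lowest it was 0.29 over the alternatives that kept all arrays and 0.45 in the fits that left out 1 array. Averaged over both TP-16 states, the arrays with antibody were higher by 1.28 (2.42-fold, adjusted p = 0.0716), 1 of 10 genes called beside 3.71% of all genes, and with normexp by 0.73, not called. Averaged over both antibody states, the difference with TP-16 was 0.88 (1.84-fold, adjusted p = 0.0439). For that average limma called 0 of 10 genes beside 5.37% of all genes, with 6 of 10 at or under the unadjusted p, where 41.0% of all genes were, and 0 called by the methods' t-test. The departure of Hpgd from additivity was 0.98 (SE 0.42, adjusted p = 0.701).

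Hpgd was measured by 1 probe, and its size depended on the processing. With normexp, which corrects the background and adds an offset of 50 to all spots, the combination difference was 1.09 (adjusted p = 0.00372) in place of 2.15, and with quantile normalization in place of the 75th percentile it was 2.51 (adjusted p = 0.0114). At the unadjusted threshold Hpgd was called for the combination against vehicle in every alternative run, although the adjusted p was 0.0675 without combination replicate 2, 0.0635 with only the 2 groups in the fit and 0.177 by the methods' t-test.

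Slco2a1, the prostaglandin carrier, measured -1.07 and -0.79 in vehicle, -0.39 and -0.48 with TP-16, -0.34 and -0.37 with anti-PD-1, and 0.10 and 0.24 in the combination on its brightest probe, A_55_P1989673. The combination arrays were above both single agents and those above vehicle, with no overlap between the steps, while the 2 single agents lay side by side. TP-16 exceeded vehicle by 0.49 (SE 0.13, adjusted p = 0.107), anti-PD-1 by 0.58 (SE 0.13, adjusted p = 0.241) and the combination by 1.10 (SE 0.13, 95% interval 0.77 to 1.42, adjusted p = 0.0102). The combination exceeded TP-16 alone by 0.60 (SE 0.13, adjusted p = 0.131) and anti-PD-1 alone by 0.52 (SE 0.13, adjusted p = 0.0921). The departure from additivity was 0.03 (95% interval -0.43 to 0.49). Without vehicle replicate 1 the combination difference was 0.96, a fold just under 2, with an adjusted p of 0.0191, and with normexp it was 0.91. Without combination replicate 2 the adjusted p was 0.0650, and with only the 2 groups in the fit it was 0.0635.

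The other probes that carry the name Slco2a1 did not all move the same way. A_52_P1165070 measured -3.02 and -3.37 in vehicle, -2.36 and -2.88 with TP-16, -2.64 and -0.12 with anti-PD-1, and -1.86 and -1.55 in the combination. Its combination difference was 1.49 (SE 0.77, adjusted p = 0.182), and the single high array was anti-PD-1 replicate 2, one of the 2 with the highest epidermis markers. Averaged over both TP-16 states it was called higher with antibody, by 1.36 (SE 0.54, adjusted p = 0.168), a call lost in 7 of the 8 fits that left out 1 array (0.73 without anti-PD-1 replicate 2, 1.99 without anti-PD-1 replicate 1) and in 4 of 9 other settings. A_55_P2941602 measured 0.18 and 0.47 in vehicle, -1.40 and -2.94 with TP-16, 0.06 and -0.79 with anti-PD-1, and -1.93 and -3.04 in the combination. It differed from vehicle by -2.49 with TP-16 (SE 0.62, adjusted p = 0.0982) and by -2.81 in the combination (SE 0.62, adjusted p = 0.0231), opposite to the brightest probe. Averaged over both antibody states its TP-16 difference was -2.31 (SE 0.44, adjusted p = 0.0275), and the combination differed from anti-PD-1 alone by -2.12 (SE 0.62, adjusted p = 0.115). The last of these was not called without anti-PD-1 replicate 1 (-1.70), without combination replicate 2 (-1.57) or with the methods' t-test, and the TP-16 difference from vehicle was -3.26 without TP-16 replicate 1 and -1.72 without TP-16 replicate 2, called in both and not with the methods' t-test. The mean of the tested probes therefore reversed the Slco2a1 difference to -0.08 for the combination and -0.47 for TP-16. The probe A_66_P134560 was not well above background on any array.

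The first 30 bases of these 4 probes are shown because the probes disagree in direction. They are 60 bases long, and their array positions are in mm9, at chr9:102990100-102990159, chr9:102913679-102913921, chr9:102992265-102992324 and chr9:102998270-102998329 in the order given, all on the plus strand.
A_55_P1989673: gttcccggaagatcagctgtccccacaagt
A_55_P2941602: ttgttttgttttgtttaaagagagagagaa
A_52_P1165070: gttctcgcttaagaaacaaagccatgttgt
A_66_P134560: tcagaaatagtttcctacacagagcaaagt
The second begins with a run of t and g and goes on with a ga repeat. Over its whole length it shares a stretch of 16 bases with 21 probes of other genes, while the other 3 share none, nor does the Hpgd probe. It is also the only one of the 4 whose annotated span of 243 bases is longer than the probe. The array annotation ties A_55_P1989673 to a RefSeq transcript and the other 3 to Ensembl transcripts.

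**Figure D3:**
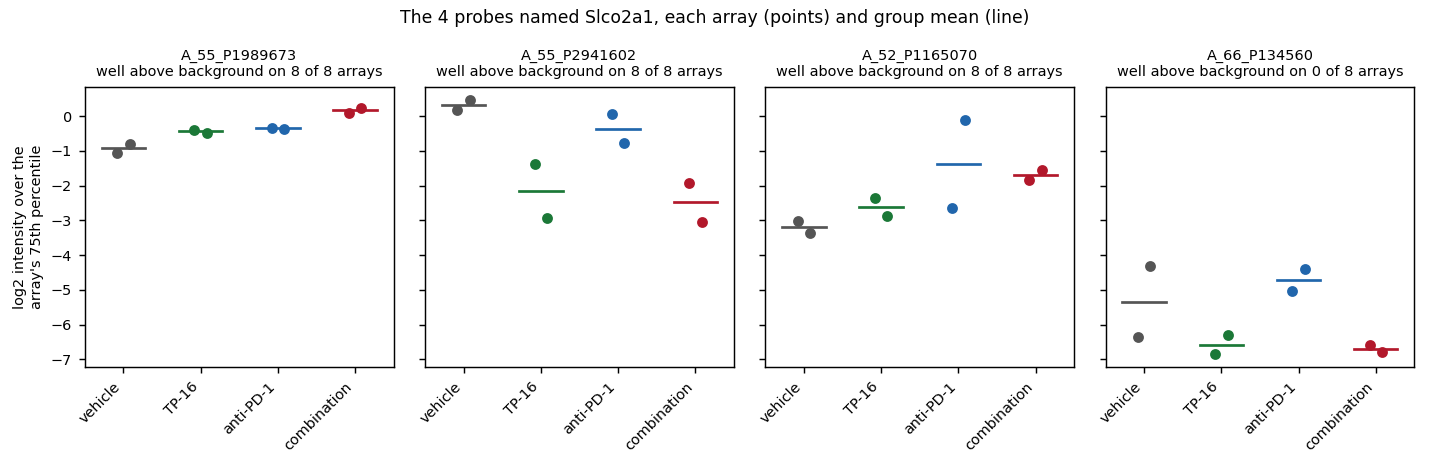
Log2 intensity over the 75th percentile of the array (y axis) of the 4 probes named Slco2a1, on the 2 arrays of each group (points) with the group mean (line). A_55_P1989673 and A_52_P1165070 are higher on both combination arrays than on both vehicle arrays, A_55_P2941602 is lower on the TP-16 and combination arrays, and A_66_P134560 is not well above background on any array.

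Hpgd and Slco2a1, the 2 genes called in the combination, are shown with the sequence around their RefSeq starts, from 250 bases before to 30 after, on the plus strand of GRCm38.p6 at chr8:56294302-56294581 and chr9:103008237-103008516.
Hpgd: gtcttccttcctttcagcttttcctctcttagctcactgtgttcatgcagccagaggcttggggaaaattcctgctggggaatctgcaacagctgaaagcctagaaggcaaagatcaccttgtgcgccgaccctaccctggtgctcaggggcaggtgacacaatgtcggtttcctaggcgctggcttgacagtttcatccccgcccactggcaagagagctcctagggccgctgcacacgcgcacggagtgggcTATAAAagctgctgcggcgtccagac
Slco2a1: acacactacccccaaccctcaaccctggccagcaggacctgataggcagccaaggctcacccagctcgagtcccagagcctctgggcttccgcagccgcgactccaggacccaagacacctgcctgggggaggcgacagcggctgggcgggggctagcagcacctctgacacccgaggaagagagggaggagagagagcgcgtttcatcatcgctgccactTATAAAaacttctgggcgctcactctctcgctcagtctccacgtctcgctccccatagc
The capitals mark the TATA box letters TATAAA, which lie after the annotated start in Hpgd and before it in Slco2a1. Both strands of windows of these 280 bases were searched. The TATA box was found in 3 of the 10 windows of these genes, which cover 9 genes (Ptgis has no entry, Pla2g4a has 2), and in 13.1% of all 32851 windows. The response element core, spelled CGTCA, was found in 2 of 10 (Ptgs2 and Ptges3) and in 19.9% of all. It is contained in the full cyclic AMP response element, spelled TGACGTCA, which was found in 0 of 10 and in 1.74% of all windows. The E-box, spelled CACGTG, was found in 2 of 10 (Ptgs2 and Ptges2) and in 6.79% of all. The AP-1 site, spelled TGANTCA, was found in 1 of 10 (Ptgds) and in 7.46% of all. A match is a description of the letters only.

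**Figure D4:**
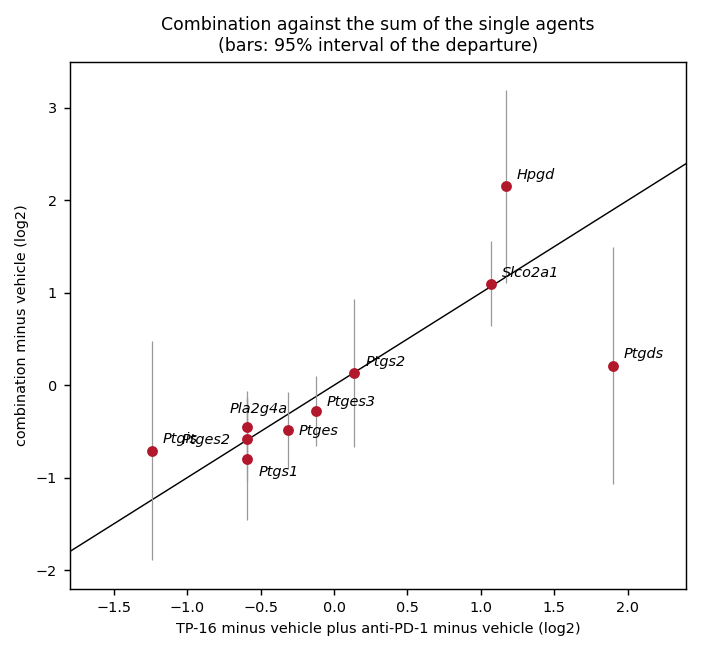
Log2 difference of the combination from vehicle (y axis) against the sum of the differences of both single agents (x axis) for the 10 genes, with the line of equality. Bars are the 95% interval of the departure from that line. Ptgds lies below the line with an interval that does not reach it, and the other intervals, that of Hpgd included, reach the line.

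Markers of other cells in the tumor moved in the same comparison as Hpgd and Slco2a1. In the combination against vehicle, 6 of 10 macrophage markers, 8 of 9 mast cell markers, 5 of 10 fibroblast markers and 8 of 9 T-cell and NK markers were called higher. Among all genes 6.63% were called higher in that comparison and 10.4% lower. The summed macrophage level was 150 to 202 times the 75th percentile in vehicle and 276.9 to 397.8 in the combination, and the fibroblast level 263 to 299.5 and 499.1 to 536. The mast cell markers summed to 16.7 to 22.9 in vehicle, 40.8 to 49.5 with anti-PD-1 and 51.3 to 61.8 in the combination, and the T-cell and NK markers to 7.71 to 25.1 in vehicle and 43.9 to 67.1 in the combination. Of the epithelial carcinoma markers 4 of 6 were called lower in the combination, with sums of 9.42 to 13.5 in vehicle and 3.51 to 5.24 in the combination. Among these 4, Cdx2 was well above background on 2 vehicle arrays and 0 combination arrays. It entered the test only through vehicle, so that the size of its difference is uncertain. Neutrophil markers summed to 106.9 to 117.3 in vehicle and 56.7 to 70.8 in the combination. Of the 9 neutrophil markers tested 2 were called lower, S100a8 with a difference of -1.09 (adjusted p = 0.0177) and S100a9 with -1.20 (adjusted p = 0.0195), while 4 of 9 were above vehicle and their median difference was -0.0019. The neutrophil marker Ngp was not well above background on any array. Of the endothelial markers 2 of 10 were called higher in the combination, and 9 of 10 were above vehicle (median difference 0.34). Their mean log2 level was 0.45 and 0.98 in the combination and 0.23 and 0.28 in vehicle, while their sum overlapped vehicle. The part of these cells in the Hpgd and Slco2a1 differences was not tested.

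Other genes of the pathway were read from fixed lists, whose counts stand beside 17.0% of all genes called in the combination, 6.67% with TP-16 and 4.14% with anti-PD-1. Of 9 prostanoid receptors 6 were tested, and 3 were called higher in the combination, where the list's median difference was 1.09. Ptger2, the receptor EP2, rose by 2.10 (SE 0.33, adjusted p = 0.0113), from -3.17 and -2.29 in vehicle to -0.91 and -0.35, with a difference of 1.32 with normexp and no call by the methods' t-test. Ptger4, the EP4 receptor that TP-16 blocks, rose by 1.77 (SE 0.31, adjusted p = 0.0135), from -0.37 and 0.01 to 1.29 and 1.87. Ptgir, the prostacyclin receptor, rose by 1.22 (SE 0.21, adjusted p = 0.0136), and with normexp it was at 0.73 and not called. For TP-16 limma called 0 of 6, with 0 at or under an unadjusted p of 0.05, where 27.9% of all genes were. Ptgfr, the receptor of prostaglandin F2 alpha, was 1.14 higher with anti-PD-1 (SE 0.29, adjusted p = 0.259), the 1 of 6 called there. Of the 2 vehicle arrays only replicate 1 had the Ptgfr probe well above background, so that the size of the difference is uncertain. The probe entered the test only through anti-PD-1 and the combination, the groups where it was higher. Ptgfr was at 0.73 without vehicle replicate 2 and 0.30 with normexp, and not called in either or by the methods' t-test. Ptger3, Ptgdr and Ptgdr2 had no probe well above background on both arrays of any group.

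Of the other prostanoid enzymes and carriers 9 were tested and 1 was called in the combination, Tbxas1, the thromboxane synthase, which rose by 1.69 (SE 0.33, adjusted p = 0.0179) from 0.97 and 1.70 in vehicle to 2.73 and 3.30 and was not called by the methods' t-test. For either single agent limma called 0 of 9. At any fold 1 of 9 had an unadjusted limma p at or under 0.05 with TP-16, where 27.9% of all genes did. With anti-PD-1 0 of 9 did, beside 15.0% of all genes. Tbxas1 was 0.90 above vehicle with TP-16 (adjusted p = 0.170). Hpgds, the other D2 synthase, differed from vehicle by -0.23 with TP-16 and by -0.14 in the combination. Of the 14 tested genes of arachidonate release 3 were called in the combination. Pla2g2d, a secreted phospholipase A2 of dendritic cells and macrophages, rose by 2.13 (SE 0.41, adjusted p = 0.0168) and was 1.02 above vehicle with TP-16 (adjusted p = 0.193), the 1 of 14 called there. In the combination Pla2g2d was at 1.10 with normexp and was not called by the methods' t-test. Its TP-16 call was lost in 6 of the 8 fits that left out 1 array (0.64 to 1.40) and in 6 of 11 other settings, down to 0.28 with normexp. Plaat3, a phospholipase of adipose tissue, rose by 2.08 (SE 0.58, adjusted p = 0.0414), and its 2 vehicle arrays were at 0.34 and 2.07. Plaat3 was at 1.21 without vehicle replicate 1 and 2.94 without vehicle replicate 2, and it was not called without combination replicate 2 (1.82), with the mean of its probes (0.97) or by the methods' t-test. Pla2g2e, another secreted phospholipase A2, fell by 1.63 (SE 0.30, adjusted p = 0.0157). The median of the 14 was 0.03 in the combination.

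**Figure D5:**
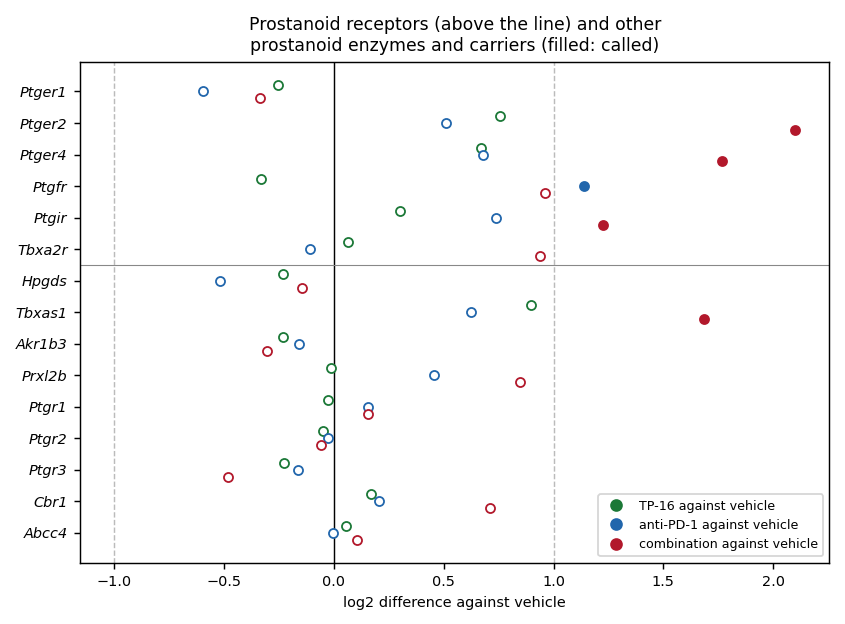
Log2 difference from vehicle (x axis) of the tested prostanoid receptors (above the horizontal line) and other prostanoid enzymes and carriers (below it), with a colour per treatment. Filled points were called and dashed lines mark a fold of 2. Ptger2, Ptger4, Ptgir and Tbxas1 are called for the combination and Ptgfr for anti-PD-1.

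Among 13 tested lipoxygenase and leukotriene genes, Cysltr2, a receptor of cysteinyl leukotrienes, was the 1 called in the combination, where it rose by 1.36 (SE 0.39, adjusted p = 0.0464). Cysltr2 was at 0.81 without vehicle replicate 1, 1.15 without combination replicate 2 and 0.52 with normexp, and it was called in none of these, nor by the methods' t-test. Of 13 cyclic AMP and early response genes 2 were called in the combination. Fos rose by 1.25 (SE 0.15, adjusted p = 0.0102), and Areg, an EGF receptor ligand, fell by 2.37 (SE 0.37, adjusted p = 0.0114). Areg was also 1.17 lower with TP-16 (SE 0.37, adjusted p = 0.133), the 1 of 13 called there. Without vehicle replicate 1 that difference was -0.72 and without TP-16 replicate 1 it was -0.98, and neither was called, nor was it by the methods' t-test. The median of the 13 lay between 0.04 and 0.19 in the comparisons with vehicle.

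The genes whose levels followed 3 of the members most closely are given as a description over 8 arrays, which share the 4 groups and 1 slide, among 17845 named genes. For Ptgs2 the 5 highest Pearson correlations were 0.915 to 0.944, with AK040094, Adat1, Caap1, 1700066C05Rik and Vsx1. For Ptges they were 0.994 to 0.997, with Defa-rs10, Rhox5, H2aw, Ttc33 and Eef1d. For Hpgd they were 0.982 to 0.989, with Ppt2, Nudt18, Aplp1, E230029C05Rik and Camta2.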

How the data were processed

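RNA of 8 tumor samples was hybridized, 1 sample an array, to Agilent mouse arrays and read with Feature Extraction 10.7.1.1, per the file headers. The deposited intensity is the processed signal, background-subtracted by that software. The authors also deposited log2 values, normalized between arrays by an unnamed method (column medians 5.158, sorted columns within 0.00115 of each other, correlation of 0.996 to 1 with the scanner values). They served as an alternative. Outlier-marked spots (959) were left out, spots of a probe were averaged, and 56567 probes remained. Intensities were divided by the 75th percentile of the array and log2 transformed. The test took the 31912 probes (21616 genes) that some group showed well above background on both its arrays. limma 3.58.1 in R 4.3.3 fitted 1 mean per group with 4 residual degrees of freedom, and p-values were adjusted by Benjamini-Hochberg over all tested probes. A gene was read by its brightest probe. The study's methods used a Student's t-test on GeneSpring values. A Student's t-test on the values relative to the 75th percentile, not on GeneSpring values, was run here as an alternative, "the methods' t-test". The fit was tested on simulated data.

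Named are all 10 members, their other probes where sign or call differs, the genes of the fixed pathway lists that were called against vehicle, and the 5 most similar genes for Ptgs2, Ptges and Hpgd. The members and all gene and marker lists were chosen with earlier results of these data known. Names were updated through RefSeq for 32971 probes (58.3%). Probe positions are those of the array annotation (mm9), and promoter sequence is from RefSeq on GRCm38.p6. The number of arrays limits the precision. The vehicle and treated samples carry replicate numbers, which nothing ties to a shared animal or day.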

Additional observations from a re-analysis of the deposited data

Results flagged for a closer look

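The departure of Ptgds, the prostaglandin D2 synthase, from additivity was -1.69 (SE 0.52, limma adjusted p = 0.580). It was picked out at an unadjusted limma p at or under 0.05 for a TP-16 difference that was unlike with and without the antibody, which adjustment did not keep. Ptgds was 1.40 above vehicle under TP-16 alone, while the combination differed from anti-PD-1 alone by -0.29 (95% interval -1.20 to 0.62). The departure was not called without TP-16 replicate 2, without anti-PD-1 replicate 1 or without combination replicate 2, and without vehicle replicate 1 Hpgd was called in its place. Groups of 2 arrays are too small to look for single outlying arrays.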

How the results depend on the processing

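Of the 10 genes, the number called for TP-16 against vehicle was 2, and 1 after quantile normalization, with normexp, with the authors' log2 values or with the mean of probes (Ptgds in each), and 0 with the methods' t-test before or after adjustment or with an adjusted p. For anti-PD-1 the number was 0, and 1 after quantile normalization, with the authors' log2 values or at a fold of 1.5 (Hpgd). For the combination it was 2 (Hpgd and Slco2a1, but Hpgd and Pla2g4a with the mean of probes), 1 with normexp, 0 with the adjusted t-test and 3 at a fold of 1.5 (with Ptgs1). Against TP-16 the combination had 2, 1 with the t-test, 0 with either adjustment and 4 at a fold of 1.5. Against anti-PD-1 it had 1, and 0 with normexp or either adjustment. The departure had 1, and 0 with an adjusted p. The average over TP-16 had 0, 1 after quantile normalization or with the authors' log2 values and 2 at a fold of 1.5, and that over anti-PD-1 had 1, 0 with normexp or either adjustment and 2 at a fold of 1.5. Leaving out 1 array gave 0 to 2, 0 to 1, 1 to 3, 1 to 2, 1 to 1, 0 to 1, 0 to 1 and 1 to 1 in these 8 comparisons. The arrays concerned are vehicle replicate 1 and TP-16 replicate 2 for TP-16 (0 each), vehicle replicate 2 and anti-PD-1 replicate 2 for anti-PD-1 (1 each), and vehicle replicate 1 (1) and combination replicate 1 (3) for the combination.

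Direction turned for small differences. After quantile normalization and with the authors' log2 values Ptges3 became 0.117 and 0.120 for TP-16, 0.082 and 0.086 against vehicle in anti-PD-1, and 0.097 and 0.101 in the combination, and Ptges became 0.018 and 0.019 in anti-PD-1. Hpgd became -0.076 for TP-16 with normexp, and Slco2a1 became -0.47 for TP-16 and -0.075 for the combination with the mean of its probes. Leaving out 1 array took Ptgs2 from -0.32 to 0.18 for TP-16, from -0.038 to 0.46 in anti-PD-1 and from -0.11 to 0.38 in the combination, Ptges3 for anti-PD-1 from -0.074 to 0.0081, Ptgis for anti-PD-1 from -0.55 to 0.087 and Ptgds for the combination from -0.12 to 0.54. The causes were not tested.

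Deviations of same-numbered samples from their group means correlated between groups at -0.193 to 0.290, with both negative values in pairs with anti-PD-1. These correlations do not settle if the replicate numbers pair the samples. With the replicate block the 8 counts of members were 2, 0, 2, 2, 1, 1, 0 and 1, as without it. With the anti-PD-1 numbers exchanged, an alternative chosen after seeing the data, the block gave the counts 2, 0, 2, 2, 1, 1, 0 and 1. A slide block was not run, since there is 1 slide. The t-test and the fit of only the groups compared do not apply to the departure. The Hpgd difference of the combination from vehicle ranged from 1.09 to 2.51 over the alternatives that kept all arrays.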
